A study of Mus musculus with 16 samples.

Results

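The fibroblast growth factor (FGF) genes described here were the 9 rows of the count tables whose symbol was Fgf1, Fgf2, Fgf2os, Fgf10, Fgf12, Fgf13, Fgfr1, Fgfr2 or Fgfr3, out of 43280 gene symbols. They comprise 3 secreted ligands (Fgf1, Fgf2 and Fgf10), the antisense gene of Fgf2 (Fgf2os), 2 intracellular family members (Fgf12 and Fgf13) and 3 receptors. All 9 passed the filter on low counts, so all 9 were tested. RNA came from whole retina of C57BL/6J mice labelled wildtype, in 16 libraries. Mice with oxygen-induced retinopathy (OIR) were kept in 75% oxygen from postnatal day 7 to day 12 and then in 21% oxygen, and controls stayed in 21% oxygen. Retinas were taken at postnatal day 14, 17 or 30 (P14, P17, P30), with 2 control and 2 OIR libraries at P14 and 3 of each at P17 and P30. Nothing in the labels says whether libraries of a group came from separate animals, so the p-values measure the spread between these libraries, part of which may be technical. Sex-linked genes separate the 2 controls at P14, and OIR replicate 2 from the other two at P30, so those libraries do not share an animal.

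FGF ligands are secreted proteins that bind receptor tyrosine kinases on the cell surface together with heparan sulfate, and the receptors signal through adaptors to the ERK kinases. ERK then raises feedback inhibitors of the Sprouty and Dusp families and transcription factors of the Etv family. Fgf12 and Fgf13 belong to a branch that is not secreted and binds sodium channels of neurons. In the retina Fgf2 is known as a factor that protects photoreceptors after injury, and as an angiogenic factor.

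The annotation places Fgf2 at chr3:37348346-37410108 on the plus strand and Fgf2os at chr3:37335332-37349740 on the minus strand of the mouse build GRCm38 (mm10; GENCODE M21). The spans of these genes share 1395 bases, from 37348346 to 37349740, but their exons share 0 bases. The first exon of Fgf2os (37349649 to 37349740) lies in the first intron of Fgf2, which begins after the end of an exon at 37349024. At its other end Fgf2 overlaps Nudt6 (chr3:37404910-37420211, minus strand) over 5199 bases, of which 640 are exonic in both genes, or 9.44% of the exon length of Fgf2 and 38.2% of that of Nudt6. The strand setting of the read counting is not given in the sources used here. Reads of Fgf2 and Nudt6 in their shared exons therefore cannot be told apart with certainty. For Fgf2os this holds at most in its first exon, where unspliced Fgf2 reads could fall, since its other exons lie outside the Fgf2 span. Fgf2 and Fgf2os were judged together because their spans overlap, and Nudt6 is given beside them.

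**Figure D1:**
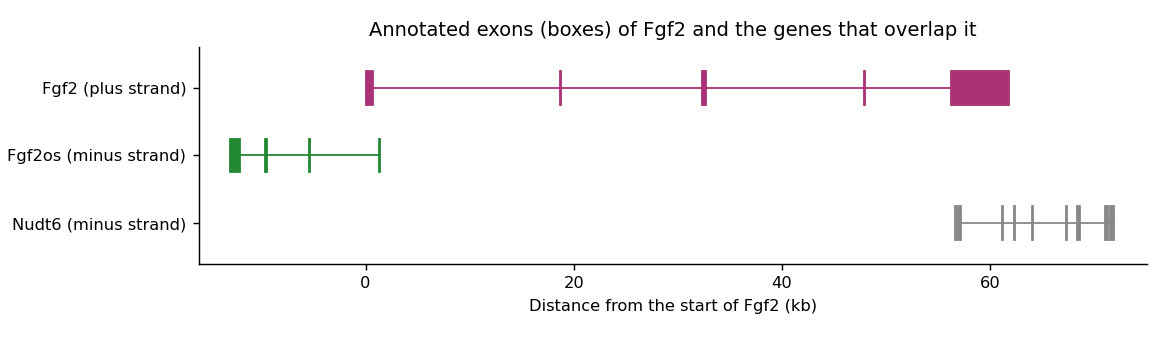
The Fgf2 locus, drawn to scale as distance in kilobases from the start of Fgf2; boxes are merged exons and lines are gene spans, with one row per gene and its strand. The spans of Fgf2 and Fgf2os share 1395 bases and no exon, whereas the last exon block of Fgf2 shares 640 bases with exons of Nudt6.

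The sequences around the starts of Fgf2 and Fgf2os are shown because both genes had higher means in OIR than in controls at each age. In RefSeq these genes also start 1188 bases apart on opposite strands. The sequences come from RefSeq (GRCm38.p6), whose promoter table held 7 of the 9 genes. For Fgf2os the 250 bases upstream of its start are given (chr3:37349842-37350091, minus strand), which lie in the first intron of Fgf2. For Fgf2 only 30 bases are given (chr3:37348592-37348621, plus strand), with a GC box, GGGCGG, in capitals at 49 to 44 bases upstream of the RefSeq transcript start at 37348653. GENCODE M21 also has an earlier start of Fgf2, at 37348346, so this window is upstream of the RefSeq start but inside the first exon block of GENCODE.
Fgf2: aggcggcgcgcgGGGCGGgggcgcacgggg
Fgf2os: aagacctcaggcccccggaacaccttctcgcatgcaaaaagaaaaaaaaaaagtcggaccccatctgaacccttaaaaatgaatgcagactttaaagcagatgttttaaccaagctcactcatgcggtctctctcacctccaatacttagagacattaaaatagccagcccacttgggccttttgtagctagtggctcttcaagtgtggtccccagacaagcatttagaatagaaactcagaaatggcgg

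Both 250-base windows were searched on both strands for the letters of 5 motifs. These were ACGTG, the core of the hypoxia response element, which 16.6% of all 32851 promoter windows hold, TGANTCA of AP-1 (6.75%), TTCNNNGAA of STAT factors (7.02%), CCGGAAG of ETS factors (6.91%) and the GC box GGGCGG (32.7%). GGGCGG occurred once in the Fgf2 window, and none of the 5 occurred in the Fgf2os window. The windows also differed in composition, with a GC content of 62.4% and 20 CG pairs for Fgf2 and of 44.8% and 5 CG pairs for Fgf2os, where the median of all windows was 52.4%. A match describes letters in a window and is not a measured binding site.

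Each library held between 26077663 and 41716971 counted reads, and 24016 to 25420 genes had reads in each library. Genes of a 19-gene lens list (crystallins and other lens proteins) took between 0.00570% and 9.11% of counts. The 10 genes of a rod list, which mark the retina, had reads in all groups, summed to 41943 to 129471 CPM and were called at no age. At P17 the lens share was 7.64% (95% Wilson interval 7.63 to 7.65), 5.70% (5.69 to 5.70) and 0.365% (0.364 to 0.367) in OIR and 0.0382%, 0.599% and 0.476% in controls, and all 6 libraries at P30 had 3.66% or more. Sex-linked expression coincided with condition at P17. The Y-linked genes summed to 66.2 to 86.6 CPM (counted reads scaled to a common library size) in the 3 controls and to 0.0451 to 0.143 in the 3 OIR libraries, whereas Xist was at 114, 140 and 158 in the latter. Elsewhere Xist was high in control replicate 2 at P14 (913 CPM) and OIR replicate 2 at P30 (105 CPM). At P17 alone, OIR and sex therefore cannot be told apart. Nor can age and sex between P14 and P17 in OIR, since the Y-linked genes summed to 136 and 146 CPM in the OIR libraries at P14. In whole tissue, fewer cells of a type and less RNA per cell cannot be told apart either.

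The comparison of OIR with age-matched controls asked which genes differ after the return to room air. Levels below are CPM scaled by TMM factors, and "called" means an adjusted p under 0.05 in edgeR's quasi-likelihood test. The share of all genes whose groups do not overlap was not counted, so statements on overlap describe these few libraries only. Of the 9 FGF genes, 2 were called at P14, where 0.819% of the 19905 genes tested were called. One was higher (0.723% of all genes were) and 1 lower (0.0955%). At P17 the count was 6 of 9, against 14.6% of all genes, with 3 higher (7.81% of all genes) and 3 lower (6.76%). At P30 it was 2 of 9, against 8.60%, and both were higher (4.96% of all genes). These 2 were Fgf2 and Fgf2os, which are judged together but count as 2 genes here, and both are among the 3 higher at P17. With their reads added the count at P30 was 1. The 9 genes were chosen with earlier results of these data known, so a share above that of all genes is no independent result. The median log2 fold change of the 9 was -0.24 at P14, 0.50 at P17 and -0.08 at P30, beside -0.01, 0.00 and 0.01 over all genes.

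**Figure D2:**
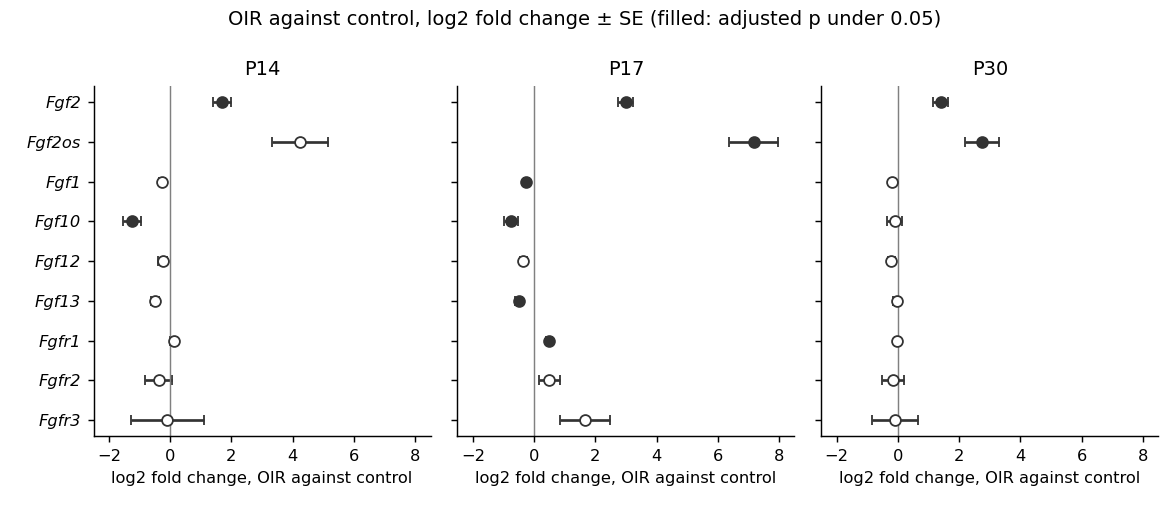
Log2 fold change of OIR against control for each FGF gene at P14, P17 and P30, with bars of 1 standard error (SE) and filled points for an adjusted p under 0.05. Fgf2 was called at all 3 ages (1.69, 3.00 and 1.40), and Fgf2os at P17 and P30.

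Fgf2, the secreted ligand also called basic FGF, was higher in OIR at every age. At P14 it stood at 2.04 and 2.43 CPM in the controls and at 6.51 and 7.93 in OIR. At P17 the controls had 3.12, 1.92 and 2.35 and the OIR libraries 12.7, 18.2 and 28.4. At P30 the controls had 3.85, 4.35 and 3.98 and the OIR libraries 9.58, 11.6 and 10.9. Every OIR library was above every control library of its age, and the OIR libraries at P17 spread most, at 19.8 ± 7.96 CPM (SD, n = 3). The log2 fold change was 1.69 (SE 0.301, adjusted p = 0.0108) at P14, 3.00 (SE 0.248, adjusted p = 1.98e-06) at P17 and 1.40 (SE 0.238, adjusted p = 0.00491) at P30. These values rest on 174 reads in control and 476 in OIR at P14, 256 and 2493 at P17, and 368 and 875 at P30.

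The call of Fgf2 at P14 ended when control replicate 1 (1.57, adjusted p = 0.142) or control replicate 2 (1.82, adjusted p = 0.092) was left out, and with limma-voom (adjusted p = 0.079). At P17 it held when any 1 library was left out (2.64 to 3.23, adjusted p up to 5.08e-05). Fgf2 was also called at P17 with the Y-linked genes as a covariate. Within P17 that covariate follows condition. Its slope therefore rests mostly on control P14 and OIR P30, where sex-linked genes differ within the group, and is assumed equal at all ages. At P30 the call of Fgf2 held when any 1 library was left out (1.33 to 1.47, adjusted p up to 0.0284).

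Fgf2os, a noncoding RNA transcribed from the opposite strand, was almost without reads in controls before P30. At P14 it had 6 and 2 reads in the controls (0.157 and 0.0505 CPM) and 54 and 79 in OIR (1.79 and 2.24 CPM). At P17 the controls had 1, 4 and 0 reads, and a count of 0 allows up to 0.104 CPM in that library, while the OIR libraries had 147, 322 and 488 reads (4.20, 7.44 and 11 CPM). At P30 the controls stood at 0.987, 1.26 and 0.329 CPM and the OIR libraries at 2.72, 5.39 and 9.67. The groups did not overlap at any age. The log2 fold change was 7.18 (SE 0.804, adjusted p = 8.31e-05) at P17 and 2.75 (SE 0.547, adjusted p = 0.0142) at P30. At P14 the value was 4.25 (SE 0.919), which missed the threshold at an adjusted p of 0.0548. It passed under 12 of the 31 alternative settings, and the size of the fitted folds at P14 and P17 depends on the few reads in controls.

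When the reads of Fgf2 and Fgf2os were added into 1 feature, the log2 fold change was 1.98 (SE 0.351, adjusted p = 0.0136) at P14, 3.44 (SE 0.291, adjusted p = 5.39e-06) at P17 and 1.75 (SE 0.274, adjusted p = 0.00444) at P30. Fgf2os made up a varying share of these reads. In OIR it was 21.6% and 22% at P14, 24.8%, 29% and 27.9% at P17, and 22.1%, 31.8% and 46.9% at P30. In controls it was 7.14% and 2.04% at P14, 0.820%, 5.63% and 0% at P17, and 20.4%, 22.4% and 7.63% at P30. The shares of controls and OIR did not overlap at P14 and P17 and overlapped at P30. The widest 95% Wilson interval among the OIR libraries, which covers counting error only, ran from 16.9% to 27.1% around the share of 21.6%. Among controls the widest ran from 14.7% to 27.6% around 20.4%. The control share of 0% at P17 had an interval up to 5.35%.

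**Figure D3:**
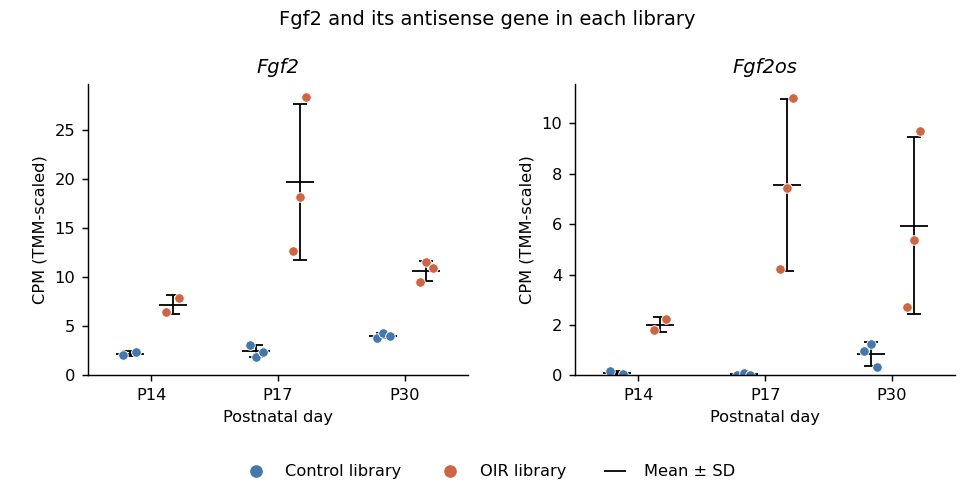
Fgf2 (left) and Fgf2os (right) in each library at P14, P17 and P30 as TMM-scaled CPM, with blue points for control, orange points for OIR, and bars for the mean ± SD. At every age all OIR points lie above all control points, and Fgf2 reaches 28.4 CPM in an OIR library at P17.

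Nudt6, a nudix hydrolase gene whose exons overlap the last exon of Fgf2, moved less than Fgf2 and is no FGF gene. It stood at 3.43, 2.83 and 3.95 CPM in controls and 5.66, 4.97 and 7.26 in OIR at P17. The log2 fold change was 0.81 (SE 0.196, adjusted p = 0.00919) at P17, 0.82 (SE 0.198, adjusted p = 0.0209) at P30 and 0.07 (SE 0.249, adjusted p = 0.982) at P14. The call at P17 ended with the Y-linked covariate and without OIR replicate 3, and that at P30 under 6 of 32 alternative settings, among them the compared groups only and without control replicate 2 or 3 or OIR replicate 3. At P14 the groups of Nudt6 overlapped while those of Fgf2 and Fgf2os did not.

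Genes of reactive glia moved alongside Fgf2. Of a 12-gene list of reactive glia, 8 were called higher at P14, 12 at P17 and 6 at P30, beside 0.723%, 7.81% and 4.96% of all genes. Their median log2 fold changes were 1.48, 2.18 and 0.74. Their summed level was 317 to 326 CPM in controls and 712 to 774 in OIR at P14. It was 318 to 370 and 917 to 1268 at P17, and 592 to 651 and 731 to 1013 at P30, and the part of these cells in the Fgf2 result was not tested. The 10 genes of a list of Muller glia did not rise with them at P14 and P17. At P17, 0 were called higher and 5 lower, where 6.76% of all genes were lower. At P14 1 was lower and at P30 1 was higher. They summed to 5079 to 5835 CPM in controls and 4507 to 4966 in OIR at P17, and their part was not tested. Of 10 microglial genes, 0, 7 and 6 were called higher at P14, P17 and P30, and of 10 endothelial genes 0, 7 and 3. The microglial genes summed to 71.5 to 92.8 CPM in controls and 155 to 197 in OIR at P17, and the endothelial genes to 321 to 377 and 423 to 535, and their part was not tested either. Of 9 genes of fibroblasts and sclera, 4 were called higher at P17 and 0 at P14 and P30. They summed to 85.9 to 100.2 CPM in controls and 184 to 196 in OIR at P17, 74.2 to 195 and 84.9 to 153 at P14, and 119 to 146 and 136 to 171 at P30. Of 5 genes of corneal epithelium 0 were called at any age, and their sum was 506 CPM in 1 OIR library at P14 and 2.32 in the other, and 18.8 or less elsewhere. The part of both was not tested.

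The size of the OIR effect was compared between ages. From P17 to P30 it became smaller for Fgf2, by 1.60 on the log2 scale (difference -1.60, SE 0.337, adjusted p = 0.00847), and for Fgf2os (difference -4.43, SE 1.10, adjusted p = 0.0251). With Fgfr1 these were 3 of the 9 FGF genes, where 9.29% of all genes were called in that difference and 3.84% in the same direction. With the Y-linked genes as a covariate none of the 9 was called in it, and the difference of Fgf2 was -1.42 (adjusted p = 0.065). From P14 to P17 the OIR effect of Fgf2 was larger by 1.31 (SE 0.384, adjusted p = 0.287), and 0 of 9 FGF genes and 0% of all genes were called. DESeq2 (125 genes higher and 52 lower over all genes) and limma-voom (0 genes) also called 0 of the 9. The unadjusted p was under 0.05 for 2 of them, Fgf2 (0.00353) and Fgfr1 (0.0195), and with the summed lens genes as a covariate the value of Fgf2 was 2.21 (adjusted p = 0.037).

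Fgf1, the acidic FGF and a secreted ligand of all FGF receptors, was a little lower in OIR at each age. At P14 it stood at 39.3 and 36.7 CPM in controls and 30.0 and 33.0 in OIR. At P17 the controls had 74.8, 72.2 and 68.1 and the OIR libraries 59.6, 62.8 and 57.9. At P30 the controls had 84.1, 79.8 and 83.5 and the OIR libraries 72.7, 74.7 and 68.3. The groups did not overlap at any age, and the rise from P14 to P17 was larger than the gap. It was called at P17 (-0.25, SE 0.0763, adjusted p = 0.0314), but not at P14 (-0.27, SE 0.0949, adjusted p = 0.292) or P30 (-0.20, SE 0.0764, adjusted p = 0.109). The call at P17 ended without control replicate 1 or 2 or OIR replicate 1 or 3, with the Y-linked covariate (adjusted p = 0.402) and under 7 other settings.

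Fgf10, a secreted ligand of the IIIb form of Fgfr2, had few reads and was lower in OIR at P14 and P17. The P14 controls had 3.32 and 2.45 CPM and the OIR libraries 1.23 and 1.19. The P17 controls had 2.22, 3.49 and 2.22 and the OIR libraries 1.77, 1.29 and 1.67. At P30 the groups overlapped, at 1.61, 1.53 and 2.15 in controls and 1.71, 1.68 and 1.5 in OIR. The log2 fold change was -1.25 (SE 0.285, adjusted p = 0.0471) at P14, -0.75 (SE 0.226, adjusted p = 0.0330) at P17 and -0.11 (SE 0.239, adjusted p = 0.817) at P30. The call at P14 ended in 13 of 16 fits that left out 1 library and with the replicate block (adjusted p = 0.088). The call at P17 ended without control replicate 2 (-0.49, adjusted p = 0.194), without OIR replicate 2 or 3, and with the Y-linked covariate (adjusted p = 0.56).

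Fgf13, an X-linked gene of the intracellular branch, was lower in OIR at P17. It stood at 47.0 and 38.9 CPM in controls and 30.9 and 30.0 in OIR at P14. At P17 the controls had 41.7, 49.2 and 44.2 and the OIR libraries 31.1, 35.6 and 28.7. At P30 the groups overlapped, at 30.1, 27.5 and 30.6 against 32.1, 27.5 and 26.2. The log2 fold change was -0.50 at both P14 (SE 0.131, adjusted p = 0.105) and P17 (SE 0.107, adjusted p = 0.00394), and -0.04 (SE 0.108, adjusted p = 0.860) at P30. The P17 call held when any 1 library was left out and ended with the Y-linked covariate (-0.32, SE 0.159, adjusted p = 0.423). Of an 8-gene list of retinal ganglion cells, 4 were also called lower at P17, where 6.76% of all genes were. The list summed to 1707 to 1887 CPM in controls and 1220 to 1336 in OIR, and its part in the Fgf13 result was not tested.

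Fgf12, the autosomal relative of Fgf13, was not called at any age. Its means were 48.0 ± 9.97 and 40.8 ± 3.51 CPM at P14 (control and OIR, SD, n = 2 each), 50.6 ± 4.83 and 39.7 ± 6.23 at P17 and 40.5 ± 1.51 and 34.9 ± 1.04 at P30 (n = 3 each). The log2 fold changes were -0.24, -0.35 and -0.22, with adjusted p of 0.701, 0.0557 and 0.260. At P30 its groups did not overlap, and at P17 they did, since OIR replicate 2 had 46.8 CPM. The P17 value passed without that replicate (-0.48), with the lens covariate and with DESeq2, among 9 of 32 settings.

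**Figure D4:**
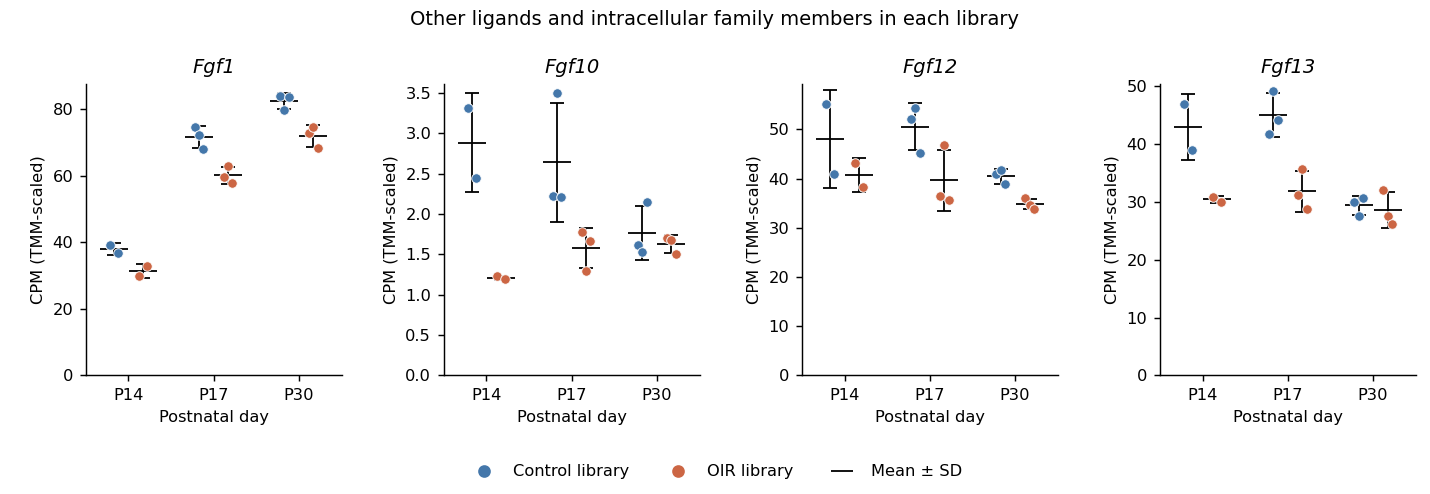
Fgf1, Fgf10, Fgf12 and Fgf13 in each library at P14, P17 and P30 as TMM-scaled CPM, with blue points for control, orange points for OIR, and bars for the mean ± SD. Fgf1 rises between P14 and P30 in both conditions, while Fgf13 in controls falls from 45.0 CPM at P17 to 29.4 at P30.

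Among the receptors, Fgfr1, the most abundant of the 3, was higher in OIR at P17. At P14 it stood at 46.2 and 51.0 CPM in controls and 56.8 and 48.3 in OIR, which overlapped. At P17 the controls had 47.0, 45.9 and 52.3 and the OIR libraries 71.1, 61.6 and 72.1. At P30 the groups overlapped again, at 79.1, 69.9 and 72.7 against 72.6, 78.1 and 68.7. The log2 fold change was 0.11 (SE 0.116, adjusted p = 0.881) at P14, 0.50 (SE 0.0945, adjusted p = 0.00174) at P17 and -0.01 (SE 0.0942, adjusted p = 0.942) at P30. The OIR effect fell by 0.51 between P17 and P30 (difference -0.51, SE 0.133, adjusted p = 0.0233). In controls Fgfr1 rose between these ages, from 48.4 ± 3.41 to 73.9 ± 4.72 CPM, so that the OIR mean at P17, 68.3 ± 5.78, lay between them. With the Y-linked covariate the P17 value was 0.35 (SE 0.142, adjusted p = 0.301).

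Fgfr2 and Fgfr3 were not called between OIR and control at any age, and Fgfr3 was higher in the libraries with most lens counts. At P17 each of these genes did pass the threshold, with the same sign, under an alternative setting. The 8 libraries with 3.66% lens counts or more had 17.4 CPM or more of Fgfr3, and the other 8 had 10.4 or less, a split chosen after the values were seen. Every P30 library was in the first set, so the split is largely one of age too, and the parts of age and lens were not separated. Within the P17 controls the order was not that of lens counts, since replicate 2, with the most (0.599%), had the lowest Fgfr3 and Fgfr2. It stood at 2.25, 1.40 and 10.4 CPM in the controls and 23.1, 17.4 and 2.75 in the OIR libraries at P17, where the OIR library with 2.75 held 0.365% lens counts and the others 7.64% and 5.70%. Its log2 fold change at P17 was 1.65 (SE 0.821, adjusted p = 0.235), -0.078 with the lens covariate. Without the 2 lens-rich OIR libraries it was -0.72, a value of the 1 OIR library left at P17, whose spread is assumed to be that of the other groups. At P14 it was at 2.08 ± 0.0844 CPM in controls and 1.99 ± 1.09 in OIR, and at P30 at 35.6 ± 8.07 and 33.5 ± 14.3.

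Fgfr2 stood at 9.66, 7.65 and 12.5 CPM in the controls and 17.4, 15.8 and 8.93 in OIR at P17, and the lowest of the OIR libraries was again that with the fewest lens counts. At P14 the control with 0.175% lens counts had 5.19 CPM and that with 0.0107% had 10.2. Its log2 fold change was 0.50 (SE 0.349, adjusted p = 0.415), and -0.14 for the 1 OIR library left without the 2 richest in lens RNA. At P14 it was at 7.69 ± 3.53 CPM in controls and 5.97 ± 1.99 in OIR, and at P30 at 19.0 ± 1.78 and 17.0 ± 7.19. All 19 lens genes had reads in every group, 2 of them were called higher at P17, where 7.81% of all genes were, and 0 at the other ages. Their summed level was 350 to 6047 CPM in controls and 3301 to 76495 in OIR at P17, and 64560 to 102838 and 40883 to 91522 at P30. At P14 it was 93.4 to 1561 in controls and 49.4 to 54.1 in OIR.

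**Figure D5:**
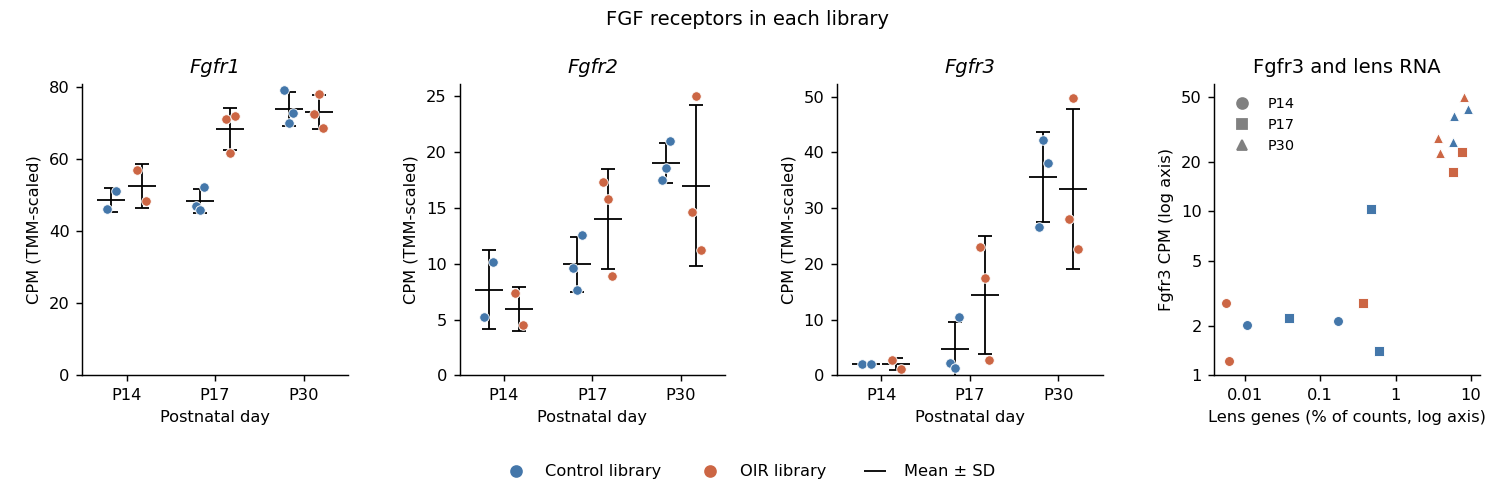
Fgfr1, Fgfr2 and Fgfr3 in each library as TMM-scaled CPM (blue control, orange OIR, bars mean ± SD), and at the right Fgfr3 against the share of counts from lens genes on log axes, with shapes for age. Fgfr1 separates OIR from control at P17, while Fgfr3 is high in the 6 libraries at P30 and in the 2 OIR libraries at P17 that hold 5.70% and 7.64% lens counts.

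Between ages in controls, Fgf1 was called higher at P17 than at P14 (0.92, SE 0.0880, adjusted p = 8.07e-07), the 1 call among the 9 where 40.2% of all genes were called. From P17 to P30, 5 of the 9 were called in controls, against 28.3% of all genes. Fgfr1 rose by 0.61 (SE 0.0947, adjusted p = 0.000152), Fgf2os by 4.06 (SE 0.979, adjusted p = 0.00746), Fgf2 by 0.71 (SE 0.252, adjusted p = 0.0436) and Fgfr3 by 2.96 (SE 0.837, adjusted p = 0.0236), and Fgf13 fell by 0.61 (SE 0.108, adjusted p = 0.000437). With the lens covariate Fgfr3 was at 0.89 (adjusted p = 0.648), and its call ended without control replicate 1 or 2 at P17 or 2 or 3 at P30. The call of Fgf2 ended in 10 of 16 fits that left out 1 library.

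In OIR, 6 of the 9 rose from P14 to P17, where 45.5% of all genes were called and 22.2% rose. Sex-linked genes also separate the OIR libraries of P14 from those of P17, so age and sex cannot be told apart there. Fgf1 rose by 0.93 (SE 0.0885, adjusted p = 4.96e-07), Fgf2 by 1.45 (SE 0.262, adjusted p = 0.000323), Fgf2os by 1.90 (SE 0.571, adjusted p = 0.0154) and Fgfr1 by 0.38 (SE 0.106, adjusted p = 0.00813). The call of Fgf2os ended without either OIR library at P14 (1.76 and 2.08) and that of Fgfr1 without OIR replicate 2 at P14 (0.27). Both calls also ended with the lens covariate and with the Y-linked covariate. Of the 6, only Fgf1 and Fgf2 stayed called with each covariate. The calls of Fgfr2 (1.24, adjusted p = 0.0280) and Fgfr3 (2.87, adjusted p = 0.0466) ended with the lens covariate (0.85 and -1.18). The values were 0.62 and 0.52 without the 2 lens-rich libraries, where 1 OIR library is left at P17. The call of Fgfr2 also ended without OIR replicate 2 at P14 (0.93), and that of Fgfr3 in 13 of 16 fits without 1 library. From P17 to P30 in OIR, 2 of 9 were called, against 42.5% of all genes. Fgf2 fell by 0.89 (SE 0.224, adjusted p = 0.00425) and Fgf1 rose by 0.26 (SE 0.0765, adjusted p = 0.0109), a value that was -0.019 when libraries were scaled by their totals. Both calls ended with the Y-linked covariate, and that of Fgf1 under 6 of the 16 settings other than leaving out 1 library. The Y-linked genes summed to 60.3, 0.0699 and 51.9 CPM in OIR at P30, so age and sex are partly tied here too.

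In the same annotation Fgf10 lies at chr13:118669791-118792115, Fgf12 at chr16:28160098-28753068, Fgf13 at chrX:59062145-59568071, Fgfr1 at chr8:25513654-25575718 and Fgfr3 at chr5:33721674-33737068, while Fgf1 is on chromosome 18 and Fgfr2 on chromosome 7. Per length of merged exons, as CPM per kilobase averaged over the 6 groups, Fgf1 was the highest of the 9 at 10.8, followed by Fgf13 at 8.64, Fgf12 at 6.84 and Fgfr1 at 6.16. Fgfr3 followed at 2.15, Fgf2os at 1.91, Fgfr2 at 1.19, Fgf2 at 1.14 and Fgf10 at 0.424. Group means spanned 0.278 to 4.97 for Fgfr3, 0.0325 to 5.24 for Fgf2os, 0.578 to 1.84 for Fgfr2 and 0.329 to 2.92 for Fgf2, so the order of these neighbours was not the same in all groups. In OIR at P17 Fgf2 reached 2.92 ± 1.17 and Fgf1 was at 11 ± 0.458 CPM per kilobase.

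The genes whose log2 CPM followed each FGF gene most closely over the 16 libraries were listed by Pearson's r among 14416 genes, as a description with no test, since all share the same groups and depths. For Fgf2 they were Rras (0.963), Bcl3 (0.961), Irf1 (0.956), Gfap (0.950), the intermediate filament of reactive glia, and Gm15983 (0.946). For Fgf2os they were Edn2 (0.962), which encodes endothelin 2, Gm15983 (0.961) and Lad1 (0.959). Fgf1 was nearest to Pnmal1 (0.977), Kcnab1 and Il33, Fgf10 to Ajap1 (0.838), Syn2 and Lmo4, Fgf12 to 9330182L06Rik (0.937), Cntn4 and Lrrtm2, and Fgf13 to Pik3r3 (0.948), Cdk14 and Scn3b. Fgfr1 was nearest to Bhlhe40 (0.944), Bcl6 and Nab2, Fgfr2 to Col4a6 (0.965), Abi3bp and Sfrp1, and Fgfr3 to Rspo1 (0.987), Esyt3 and Vit.

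Of the other FGF ligands, 11 of 17 had enough reads to be tested, and 1 was called higher at P14, 1 higher and 1 lower at P17, and 1 higher at P30, where 0.819%, 14.6% and 8.60% of all genes were called. Fgf11, of the intracellular branch, rose from 59.8 ± 3.11 to 93.6 ± 7.69 CPM at P14 (0.65, SE 0.128, adjusted p = 0.0192) and from 50.2 ± 4.68 to 65.6 ± 10.3 at P17 (0.39, adjusted p = 0.0178). Fgf14, of the same branch, fell from 16.3 ± 1.16 to 12.0 ± 0.672 CPM at P17 (-0.45, adjusted p = 0.0172). Fgf22, a ligand known for organising synapses, rose from 0.499 ± 0.0443 to 1.18 ± 0.0430 CPM at P30 (1.24, adjusted p = 0.0179). The calls of Fgf11 ended under 7 of 32 alternative settings at each age, among them both covariates, without either control or OIR replicate 1 at P14, and without control replicate 1 or OIR replicate 1 or 3 at P17. That of Fgf14 also ended under 7, among them the Y-linked covariate and without control replicate 3 or OIR replicate 2 or 3. That of Fgf22 ended under 5 of 31, among them without control replicate 1 or 2. Fgf9, a secreted ligand, was not called, at -0.17, -0.16 and -0.26.

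Of 6 other receptors and co-receptors, 5 were tested, and calls were made for 2, Fgfr4 and Fgfrl1, at P17, where 14.6% of all genes were called. Fgfr4, the remaining receptor kinase, fell from 2.14 ± 0.491 to 1.13 ± 0.162 CPM (-0.93, SE 0.242, adjusted p = 0.0149), a call that ended under 8 of 32 alternative settings, among them both covariates and without control replicate 1 or 3 or OIR replicate 3. Fgfrl1, a receptor that lacks the kinase domain, rose from 10.3 ± 0.228 to 17.4 ± 6.30 (0.75, SE 0.226, adjusted p = 0.0364), a call that ended under 12 of 32 alternative settings. Among these were both covariates and the fits without any 1 control library or without OIR replicate 1 or 2 at P17. The log2 fold change of Fgfrl1 ran from 0.024 to 1.02 over the 32 settings. Of 19 heparan sulfate proteoglycans and their enzymes, 3 were called higher and 2 lower at P17, 1 higher at P30 and 0 at P14, beside 14.6%, 8.60% and 0.819% of all genes. At P17 the core protein genes Sdc4 (0.61, adjusted p = 0.0304) and Gpc4 (0.64, adjusted p = 0.0336) were higher and the sulfatase Sulf2 (-0.42, adjusted p = 0.00279) and the polymerase Ext1 (-0.29, adjusted p = 0.0338) lower. All 4 calls ended with the Y-linked covariate. Those of Sdc4, Gpc4 and Ext1 ended under 11, 12 and 10 of 32 alternative settings. Among these were the fits without control replicate 2 or any 1 OIR library for Sdc4, without any 1 P17 library for Gpc4, and without control replicate 1 or 2 or OIR replicate 2 or 3 for Ext1.

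Of 16 adaptors and kinases, 2 were called higher at P17, 1 higher at P30 and 0 at P14, which at P17 and P30 is no larger a share than that of all genes (14.6% and 8.60%). The adaptor Shc1 rose from 12.4 ± 1.51 to 26.7 ± 7.98 CPM at P17 (1.10, SE 0.224, adjusted p = 0.00414), and the docking protein gene Gab1 rose by 0.35 (adjusted p = 0.0373). Both calls ended with the lens and the Y-linked covariate, and that of Gab1 under 11 of 32 alternative settings, among them without any 1 control library or OIR replicate 1 or 3. Of 19 feedback regulators and ERK targets 18 were tested. One of them, Etv4, was called higher at P14, Spry1 was higher and Dusp4 and Spred3 were lower at P17, and Dusp4, Etv4, Etv5 and Spred1 were lower at P30. The 3 calls at P17 are a share near that of all genes (14.6%), and 8.60% of all genes were called at P30. The Dusp4 call at P30 ended under 18 of 32 alternative settings, among them limma-voom, the replicate block, both covariates and 10 of the 16 fits without 1 library. At P17 the calls of Spry1 and Dusp4 ended with the Y-linked covariate.

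The called members of the feedback list moved in both directions at P17, while all 4 calls at P30 were lower, where 723 of 19905 genes were. The list summed to 511 to 546 CPM in controls and 431 to 496 in OIR at P30. Spry1, a Sprouty inhibitor, rose from 19.5 ± 1.34 to 30.7 ± 4.49 CPM at P17 (0.66, SE 0.108, adjusted p = 0.000554), while the phosphatase Dusp4 fell from 61.4 ± 5.52 to 39.1 ± 1.88 (-0.65, SE 0.0997, adjusted p = 0.000297). Etv4, an ETS transcription factor, rose from 5.70 ± 1.12 to 11.7 ± 1.02 CPM at P14 (1.03, SE 0.220, adjusted p = 0.0310) and fell from 6.65 ± 0.270 to 4.19 ± 1.41 at P30 (-0.66, SE 0.187, adjusted p = 0.0385), and each call ended under 10 of 32 alternative settings, among them without any 1 library of P14 and without any 1 library of P30 other than OIR replicate 2. Its relative Etv5 fell from 66.5 ± 2.40 to 41.9 ± 8.63 at P30 (-0.66, SE 0.118, adjusted p = 0.00538), where Fgf2 was still higher in OIR. Spred1, an inhibitor of the pathway, fell from 60.1 ± 4.52 to 43.8 ± 1.70 CPM at P30 (-0.45, SE 0.0811, adjusted p = 0.00541). The P30 calls of Etv5 and Spred1 each ended under 2 of 32 alternative settings, the compared groups only and the test against a 1.5-fold change. The feedback genes Spry2, Spry4 and Dusp6 were not called at any age. The median log2 fold change of the 5 lists lay between -0.28 and 0.37 at the 3 ages.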

How the data were processed

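Per the labels' protocols, RNA was isolated from retina with RNeasy columns, mRNA was selected on Dynabeads, and Ion Total RNA-seq Kit v2 libraries were read on an Ion Proton. Torrent Suite 5.4.0 aligned reads to mm10 with STAR and then Bowtie2, and HTSeq counted them, per the labels. For the aligner versions, gene annotation and strand setting the labels give nothing. Each deposited value is a raw count per gene symbol, which the authors did not normalize. No libraries were identical, and all replicate pairs differed beyond sampling noise.

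The test was edgeR 4.0.16 (R 4.3.3). filterByExpr (minimum count 10, minimum total 15) kept 19905 genes, libraries were scaled by TMM, and all 16 entered 1 quasi-likelihood fit (robust, 10 residual degrees of freedom) with Benjamini-Hochberg adjustment over all genes and a threshold of 0.05. SE is the size of the log2 fold change over the square root of F. Intervals of shares are 95% Wilson intervals, the limit for a count of 0 is 3 counts, and both cover counting error only. The steps were tested on simulated data.

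The FGF genes, lists and tests were chosen with earlier results of these data known. Named were all 9 FGF genes, their closest genes (5 for Fgf2, 3 for the others, average log2 CPM of at least 1), up to 4 genes with the smallest p per list, and Fgfr4, Fgfrl1, Fgf9, Fgf11, Fgf14, Spry1, Spry2, Spry4, Dusp6, Etv4 and Etv5. Nudt6, the lens, rod, reactive glia, Muller glia, microglia, endothelial, fibroblast and sclera, cornea and ganglion cell lists and the sex-linked genes are given as values beside a result. Alternatives were other scalings (RLE, library totals, without lens genes), filters, thresholds and fits, DESeq2 1.42.0, limma-voom (limma 3.58.1), a replicate block, covariates for lens and Y-linked genes, and leaving out libraries.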

Additional observations from a re-analysis of the deposited data

Results flagged for a closer look

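A difference of the OIR effect between P17 and P30 was called for 3 of the 9 FGF genes. For Fgf2 the log2 fold change of OIR against control was 3.00 at P17 and 1.40 at P30, a difference of -1.60. For Fgf2os it was 7.18 and 2.75, and the fitted difference was -4.43. For Fgfr1 it was 0.50 and -0.01, a difference of -0.51. The call of Fgf2os ended without control replicate 1 or 3 at P17 (-4.10 and -3.98) or control replicate 1 or 2 at P30 (-4.33 and -4.05). That of Fgfr1 ended without control replicate 2 or OIR replicate 1 or 3 at P17 (-0.47, -0.48 and -0.47) or control replicate 1 at P30 (-0.46), and that of Fgf2 held without any 1 library. In each of the 3 the level in controls rose between these ages, and at P17 the OIR libraries differ from controls in sex-linked genes.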

How the results depend on the processing

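Of the 9 FGF genes, the number called for OIR against control at P14 (2) became 4 without a count filter and with DESeq2, 1 with the lens or Y-linked covariate, and 0 at an adjusted p under 0.01, against a 1.5-fold change and with limma-voom, and 0 to 3 when 1 library was left out. Over all genes 144 were called higher and 19 lower at P14. They became 507 and 170 without a filter and 278 and 97 with DESeq2. With the lens covariate they were 63 and 11, and with the Y-linked covariate 100 and 10. They became 49 and 3 at an adjusted p under 0.01, 30 and 2 against a 1.5-fold change and 121 and 16 with limma-voom. At P17 (6) the number of FGF genes became 2 against a 1.5-fold change and with the Y-linked covariate, and 4 to 7 without 1 library. Over all genes 1555 higher and 1345 lower became 385 and 25, and 162 and 63, in these settings. Over all genes at P30, 988 higher and 723 lower became 141 and 90 at an adjusted p under 0.01. They became 43 and 27 in a fit of the compared groups only, and 0 and 1 against a 1.5-fold change. The difference from P17 to P30 had 1085 higher and 765 lower over all genes. It had 11 and 53 against a 1.5-fold change and 297 and 213 with the Y-linked covariate. At P30 (2) the number of FGF genes called became 1 at an adjusted p under 0.01, with Fgf2 and Fgf2os added and in a fit of the compared groups only. It became 0 against a 1.5-fold change, and stayed at 2 without any 1 library. For the difference from P14 to P17 (0) it became 4 without a filter and 1 with the lens covariate, and 0 without any 1 library. For that from P17 to P30 (3) it became 5 without a filter, 1 at an adjusted p under 0.01, 0 against a 1.5-fold change and with the Y-linked covariate, and 1 to 4 without 1 library. In controls from P14 to P17 (1) it became 2 without a filter, and was 1 without any 1 library. From P17 to P30 (5) it became 3 at an adjusted p under 0.01, 0 against a 1.5-fold change and 8 with DESeq2, and 3 to 7 without 1 library. In OIR from P14 to P17 (6) it became 3 with library totals and at an adjusted p under 0.01, 2 against a 1.5-fold change and with either covariate, and 2 to 6 without 1 library. From P17 to P30 (2) it became 1 at an adjusted p under 0.01 and without the 2 lens-rich libraries, 0 against a 1.5-fold change and with the Y-linked covariate, and stayed at 2 without any 1 library. Over all genes, controls from P17 to P30 (2965 higher and 2659 lower) became 233 and 279 against a 1.5-fold change. OIR from P14 to P17 (4412 and 4653) became 916 and 1533 against that fold. With the lens covariate it had 828 and 1102, and with the Y-linked covariate 2370 and 2815. OIR from P17 to P30 (4282 and 4172) became 618 and 650 against that fold and 3111 and 2865 with the Y-linked covariate. The cause of these changes was not tested.

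The sign turned, always for values not called except the last 2, for Fgfr2 at P14 (0.15, Y-linked covariate), Fgfr3 at P14 (1.09, lens covariate; 0.16, Y-linked covariate), Fgfr2 at P17 (-0.41, Y-linked covariate; -0.14, without the lens-rich libraries), Fgfr3 at P17 (-0.078, lens covariate; -0.72, without the lens-rich libraries), Fgf13 at P30 (0.025, Y-linked covariate), Fgfr3 at P30 (0.055, lens covariate), Fgfr3 in OIR from P14 to P17 (-1.18, lens covariate) and Fgf1 in OIR from P17 to P30 (-0.019, library totals). Leaving out 1 library turned the sign within these ranges of values not called, which were -0.011 to 0.22 for Fgfr1, -0.78 to 0.19 for Fgfr2 and -0.77 to 0.40 for Fgfr3 at P14, and -0.20 to 0.056 for Fgf10, -0.13 to 0.015 for Fgf13, -0.064 to 0.037 for Fgfr1, -0.55 to 0.055 for Fgfr2 and -0.49 to 0.12 for Fgfr3 at P30. Library totals moved the median of the 9 by -0.23 in controls and -0.28 in OIR from P17 to P30.

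Libraries with the same replicate number did not deviate together (correlations of -0.208 to 0.0493), so the numbers do not pair them. With the replicate block the counts of FGF genes called were 2, 6 and 2 at P14, P17 and P30, and 0, 3, 1, 4, 5 and 2 in the order of the other comparisons above. With the P14 numbers crossed in the replicate block, an alternative chosen after seeing the data, the count at P14 was 1. Without the 2 lens-rich libraries 1 OIR library is left at P17, which is assumed to vary like the other groups. Fgf10 (1060), Fgf2os (1636) and Fgf2 (4642) had the fewest reads over all libraries, though at P14 Fgfr3 had fewer than Fgf2, and limits of depth were not compared between genes.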
